A study of Homo sapiens with 10 samples.

Results

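The genes described here are STK39 and 8 others of the WNK-SPAK chloride pathway, 9 of the 62656 genes listed in an RNA-seq table of PC3 cells. STK39 was chosen by its measured difference between GW3965-treated and vehicle-treated libraries in these same data, and the others by their place in the pathway. The difference between conditions in these 9 genes is therefore given as a description, without a test. The question behind the comparison was which RNAs change in PC3 cells when the liver X receptors (LXRs) are stimulated.

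PC3 is an established cell line from a human prostate cancer, and all libraries came from this 1 line. Both groups were starved overnight and then kept for 24 h in RPMI-1640 with 2 mM L-glutamine. The control group received the solvent DMSO (5 libraries) and the treated group 1 µM GW3965, a synthetic agonist of the LXRs, nuclear receptors for oxysterols that control cholesterol and fatty acid genes (5 libraries). Values are RPKM, read counts scaled by gene length and by a factor for each library, so that levels of different genes can be set side by side.

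SPAK, the product of STK39, and its close relative OSR1, the product of OXSR1, are serine/threonine kinases of the STE20 family. WNK kinases, which respond to low intracellular chloride and to cell shrinkage, phosphorylate and activate both of them. SPAK and OSR1 in turn phosphorylate cation-chloride cotransporters of the SLC12 family. This switches on the sodium-potassium-chloride cotransporter NKCC1 (SLC12A2), which brings chloride into the cell, and switches off potassium-chloride cotransporters such as KCC1 (SLC12A4) and KCC4 (SLC12A7), which carry it out. The activity of the pathway is set largely by phosphorylation, which RNA levels do not show.

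The libraries held between 30431690 and 41638859 gene-assigned reads, recovered from the RPKM steps as described under processing. The LXR target genes ABCA1, ABCG1, SREBF1 and MYLIP, a check of the labels, were all higher with GW3965. ABCA1, a cholesterol exporter, averaged 3.43 RPKM in DMSO and 16.5 in GW3965 libraries (limma adjusted p = 0.00063). The epithelial keratins KRT8 (29.8 to 41.4 RPKM) and KRT18 (42.7 to 58.5 RPKM) were abundant, while CDH1, another epithelial marker, stayed at or under 0.518 RPKM. KLK3, the androgen-dependent prostate antigen, was listed at 0 in all 10 libraries. The summed level of 3 leukocyte markers reached at most 0.0962 RPKM. The first principal component of the read counts was taken over the most variable genes and held 48.5% of their variance. Its scores ran from -10.1 (DMSO library 4) to 2.62 in 7 libraries. DMSO library 1 and GW3965 libraries 1 and 2 stood apart at the high end, at 8.08 to 9.90. The labels name no batch, and where a value described below follows these 3 libraries their range is given beside it. Nothing in the labels states that the 5 libraries of a group came from separate cultures, so p-values measure the spread between these libraries, which may be technical. In such bulk RNA, fewer cells expressing a gene and less RNA per cell cannot be told apart.

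STK39 RNA was 1.75 times as high with GW3965 as with DMSO, the single clear difference among the 9 genes. STK39 (ENSG00000198648) lies at chr2:167954020-168248141 on the minus strand (GENCODE 29, GRCh38). Its level was 10.8, 10.1, 9.32, 11.1 and 10.6 RPKM in DMSO libraries 1 to 5, and 18.5, 18.9, 17.4, 18.4 and 17.7 RPKM in GW3965 libraries 1 to 5. The groups did not overlap, and every treated library stood above every control. The mean was 10.4 ± 0.691 RPKM in DMSO and 18.2 ± 0.604 RPKM in GW3965 (SD, n = 5 each). The log2 fold change was 0.81 (SE 0.057, 95% interval 0.68 to 0.93). Each DMSO library held 1044 to 1591 STK39 reads and each GW3965 library 2128 to 2789, so counting error was small against the difference. The difference did not follow the 3 libraries that stand apart, since DMSO library 1 (10.8 RPKM) lay with the other controls and GW3965 libraries 1 and 2 (18.5 and 18.9 RPKM) with the other treated libraries. Without these 3 libraries the log2 fold change was 0.79.

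**Figure D1:**
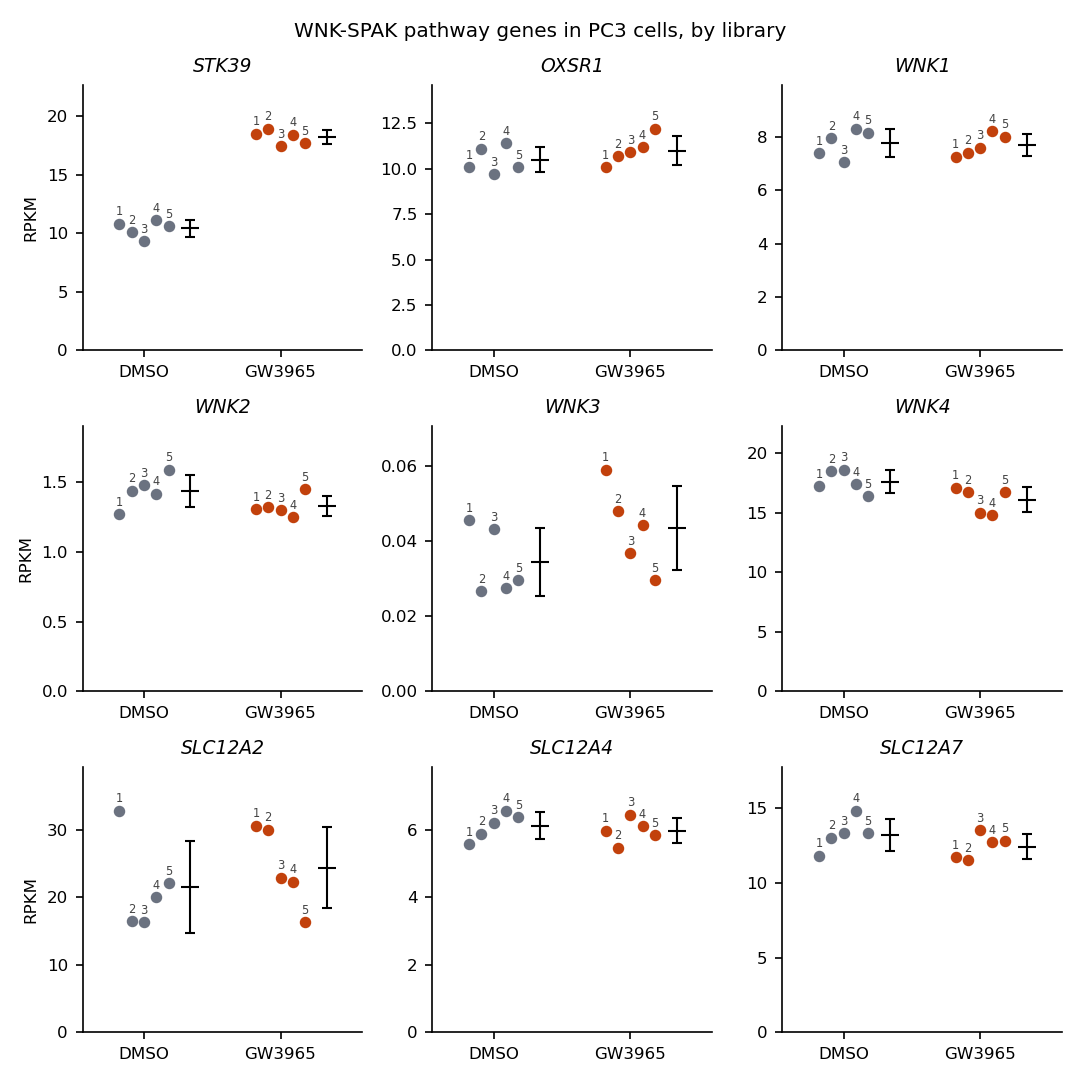
RPKM (y axis, from 0, a separate scale per gene) of the 9 pathway genes in each of the 5 DMSO (grey) and 5 GW3965 (orange) libraries, numbered by replicate; the black bar gives the mean and SD. STK39 is the one gene whose groups do not overlap, at 9.32 to 11.1 against 17.4 to 18.9 RPKM, while SLC12A2 spreads from 16.3 to 32.8 RPKM within the DMSO libraries alone.

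STK39 was 1 of the 8 pathway genes that passed the low-value filter, a mean of at least 0.5 RPKM, and the only one of them past the threshold of the limma fit over all genes. Of the 20402 genes tested, 32 (0.157%) passed it, 30 higher and 2 lower with GW3965. STK39 was also the only one of the 8 whose groups of libraries did not overlap, against 1.84% of all tested genes. The choice of STK39 made each count at least 1, and nothing is read from them. The median log2 fold change was -0.02 over the 8 genes and 0.003 over all tested genes.

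The WNK kinases, the upstream end of the pathway, were led by WNK4. WNK4 RNA was 17.2, 18.5, 18.6, 17.4 and 16.4 RPKM in DMSO libraries 1 to 5, and 17.1, 16.7, 15.0, 14.8 and 16.7 RPKM in GW3965 libraries 1 to 5. The treated libraries lay mostly lower, but the groups overlapped between 16.4 and 17.1 RPKM. The log2 fold change was -0.13 (95% interval -0.27 to 0.00). WNK4 shares 816 exon bases with COA3 on the opposite strand. The library kit keeps strand, but whether the counting used it is not given in the sources used here. Reads in the shared bases may therefore have been given to either gene or to neither. COA3 itself reached at most 6.64 RPKM.

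WNK1, the broadly expressed member of the family, averaged 7.78 ± 0.523 RPKM in DMSO and 7.70 ± 0.404 RPKM in GW3965 libraries (SD, n = 5 each). Its log2 fold change of -0.01 (95% interval -0.15 to 0.12) was the closest to 0 of the 8, and its sign turned under 6 of the 21 alternatives. WNK2 lay lower, at 1.27 to 1.59 RPKM in DMSO and 1.25 to 1.45 RPKM in GW3965 libraries (log2 fold change -0.11, 95% interval -0.29 to 0.07). WNK3 was barely detected, with 11 to 23 reads in a library, 69 reads over the DMSO and 90 over the GW3965 libraries, and a level of 0.0268 to 0.0591 RPKM (0.0456 or above in the 3 libraries apart, 0.0444 or below in the other 7). It did not pass the low-value filter and was not tested.

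Set against the sum of the 4 WNK RNAs, WNK4 made up 65.6 ± 2.24% in DMSO and 63.9 ± 2.22% in GW3965 libraries, and WNK1 28.9 ± 2.05% and 30.7 ± 2.2% (SD, n = 5). The ranges of both shares overlapped between conditions. The summed level was 25.9 to 28.0 RPKM in DMSO and 24.0 to 26.2 RPKM in GW3965 libraries, which also overlapped.

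At the next tier, the difference in STK39 was not shared by OXSR1. OXSR1 RNA was 10.1, 11.1, 9.71, 11.4 and 10.1 RPKM in DMSO libraries 1 to 5, and 10.1, 10.7, 10.9, 11.2 and 12.2 RPKM in GW3965 libraries 1 to 5. The 2 groups overlapped over most of their range. The log2 fold change was 0.07 (95% interval -0.08 to 0.22).

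The pair of kinase RNAs therefore shifted in proportion. In DMSO libraries 1 to 5, STK39 made up 51.5%, 47.8%, 49.0%, 49.4% and 51.0% of the summed RPKM of STK39 and OXSR1. In GW3965 libraries 1 to 5 it made up 64.8%, 63.9%, 61.4%, 62.1% and 59.2%. Near parity in every control gave way to a majority for STK39 in every treated library (means 49.7 ± 1.49% and 62.3 ± 2.21%, SD, n = 5). The summed level of the pair was 20.9 ± 1.24 RPKM in DMSO and 29.2 ± 0.715 RPKM in GW3965 libraries. The absolute share depends on the gene lengths used: with the exon lengths of GENCODE 29 it was 46.3% and 59.0%.

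**Figure D2:**
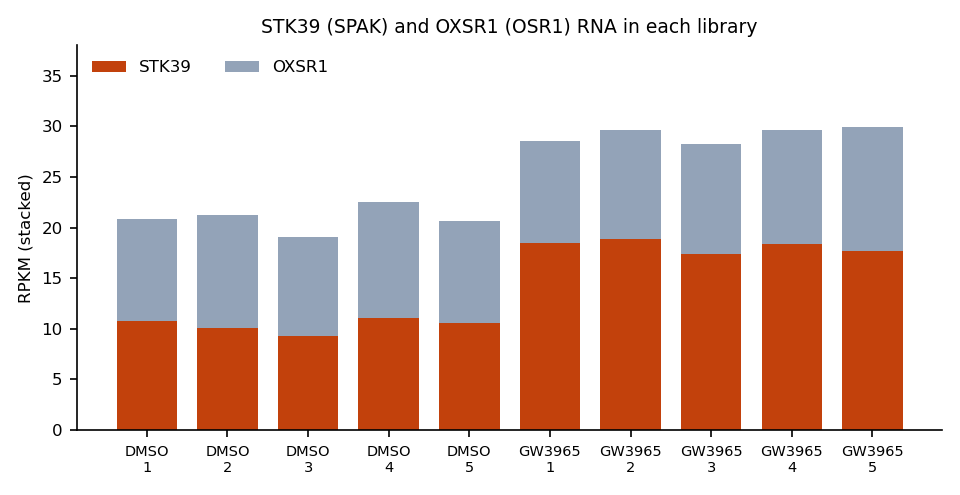
Stacked RPKM (y axis, from 0) of STK39 (orange) and OXSR1 (grey) in each of the 10 libraries, ordered by group and replicate. The orange part is taller in all 5 GW3965 libraries (17.4 to 18.9 RPKM) than in all 5 DMSO libraries (9.32 to 11.1 RPKM), while the grey part keeps to 9.71 to 12.2 RPKM throughout.

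Downstream, the cotransporter SLC12A2 (NKCC1) had the highest RNA of the 9 genes and by far the widest spread. It stood at 32.8, 16.5, 16.3, 20.0 and 22.1 RPKM in DMSO libraries 1 to 5, and at 30.6, 30.0, 22.9, 22.3 and 16.3 RPKM in GW3965 libraries 1 to 5. The levels were highest in the 3 libraries that stand apart, DMSO library 1 and GW3965 libraries 1 and 2. These 3 held 30.0 to 32.8 RPKM, and the other 7 held 16.3 to 22.9 RPKM. SLC12A2 was not left out when the first component was computed. Between conditions the log2 fold change was 0.19 (SE 0.214, 95% interval -0.28 to 0.67), the widest interval of the 8 tested genes. On leaving out 1 library it ran from 0.10 to 0.36. Among the other 7 libraries the ranges were 16.3 to 22.1 RPKM in DMSO (n = 4) and 16.3 to 22.9 RPKM in GW3965 (n = 3). What set the 3 libraries apart was not tested.

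**Figure D3:**
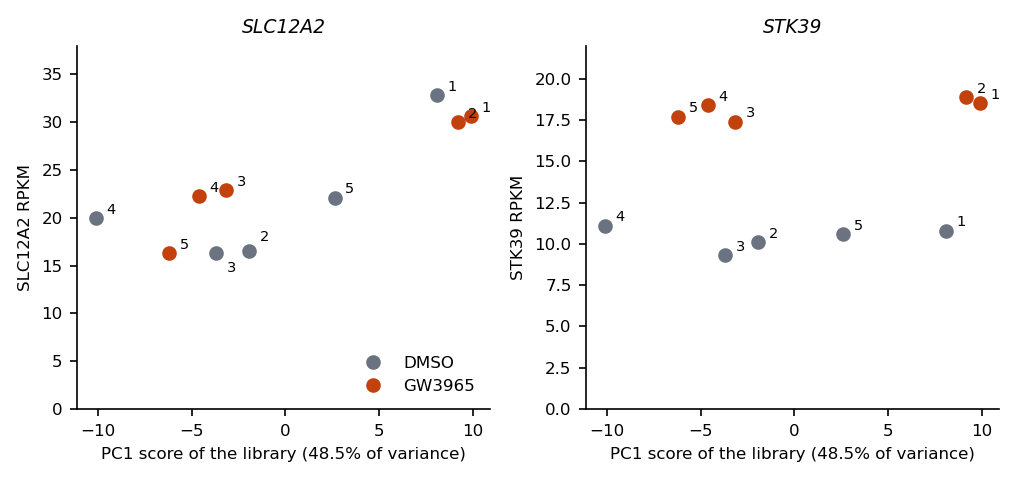
RPKM (y axes, from 0) of SLC12A2 (left) and STK39 (right) against each library's score on the first principal component of the read counts (x axis), DMSO in grey, GW3965 in orange, numbered by replicate. SLC12A2 is at 30.0 RPKM or above in the 3 libraries with scores over 8, 1 of them a control, whereas STK39 separates by treatment at low and high scores alike.

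The potassium-chloride cotransporters carried less RNA. SLC12A7 (KCC4) was 11.8, 13.0, 13.3, 14.8 and 13.3 RPKM in DMSO libraries 1 to 5, and 11.7, 11.5, 13.5, 12.7 and 12.8 RPKM in GW3965 libraries 1 to 5. Here the 3 libraries apart were the lowest, at 11.5 to 11.8 RPKM against 12.7 to 14.8 RPKM in the other 7, the opposite order to SLC12A2. Its log2 fold change between conditions was -0.09 (95% interval -0.24 to 0.07). SLC12A4 (KCC1) averaged 6.12 ± 0.391 RPKM in DMSO and 5.97 ± 0.363 RPKM in GW3965 libraries, with overlapping groups (log2 fold change -0.04, 95% interval -0.18 to 0.10). It shares 336 exon bases on the same strand with LCAT, which reached at most 2.52 RPKM. Some reads in these bases may be assigned to either gene or to neither.

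SLC12A2 made up 45.5% to 65.4% of the summed RPKM of the 3 cotransporters in DMSO and 46.7% to 63.9% in GW3965 libraries. The share of the chloride importer followed the 3 libraries apart, at 63.4% to 65.4% in them and 45.5% to 54.3% in the other 7. In DMSO library 1 it was 65.4%, above every treated library, while the other controls reached at most 52.9%.

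Ordered by level in DMSO libraries, SLC12A2 (mean 21.5 RPKM) came first, followed by WNK4 (17.6), SLC12A7 (13.2), OXSR1 (10.5), STK39 (10.4), WNK1 (7.78), SLC12A4 (6.12), WNK2 (1.44) and WNK3 (0.0346). The ranges of SLC12A2 and WNK4 overlapped, as did those of OXSR1 and STK39, and all other neighbours were separate. In GW3965 libraries STK39 (18.2 RPKM) moved from rank 5 to rank 2, above WNK4 (16.1 RPKM) without overlap and below SLC12A2 (24.4 RPKM) with overlap. The order of the remaining genes was the same, with overlapping ranges for SLC12A7 and OXSR1. Both ranks of STK39 depend on the gene lengths used. Rescaled to GENCODE 29 exon lengths, STK39 (9.04 RPKM) fell below WNK1 (9.35 RPKM) in DMSO libraries. In GW3965 libraries it then stood at rank 3, at 15.8 RPKM against 16.7 RPKM for WNK4, with overlapping ranges.

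Proteins that act on the WNK kinases or on SPAK were looked at next, from a list of 13 genes that all passed the low-value filter. KLHL2 passed the threshold and was higher, 0 were lower and 12 did not pass (median log2 fold change 0.04). Of all tested genes, 0.157% passed. The list was drawn up with earlier results of these data known. KLHL2, an adaptor that brings WNK kinases to the CUL3 ubiquitin ligase for degradation, was 1.54, 1.83, 1.46, 1.55 and 1.77 RPKM in DMSO libraries 1 to 5, and 2.16, 2.44, 2.49, 2.99 and 2.56 RPKM in GW3965 libraries 1 to 5. The groups did not overlap, and the log2 fold change was 0.60 (SE 0.096, limma adjusted p = 0.0459). This call stood close to the threshold. It was lost on leaving out any one library other than GW3965 replicate 1, with limma adjusted p of 0.065 to 0.137, while the log2 fold change stayed between 0.54 and 0.65. It was also lost without the 3 libraries apart (limma adjusted p = 0.115).

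KLHL3, the related adaptor, had the lowest log2 fold change of the list (-0.21, SE 0.136, limma adjusted p = 0.840). 2 further regulators had an unadjusted p under 0.05, as did 6.99% of all tested genes, and are named after their values were seen. NEDD4L, a ubiquitin ligase that acts on ion channels and transporters, averaged 5.32 ± 0.254 RPKM in DMSO and 6.23 ± 0.178 RPKM in GW3965 libraries (n = 5), without overlap between groups (limma adjusted p = 0.206). CAB39, the MO25 scaffold that raises the activity of SPAK and OSR1, averaged 14.6 ± 0.864 and 16.2 ± 0.845 RPKM with overlapping groups (limma adjusted p = 0.610).

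**Figure D4:**
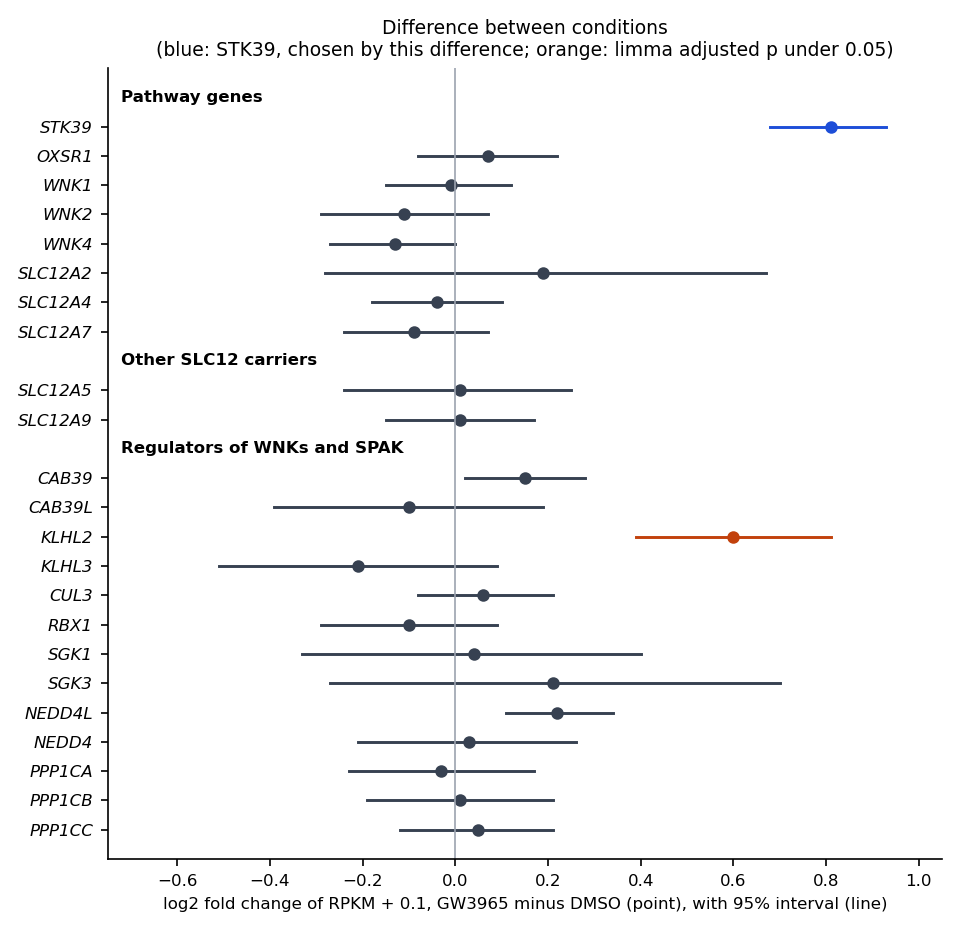
log2 fold change of RPKM + 0.1, GW3965 minus DMSO (x axis, points), with 95% intervals from the limma fit (lines), for the tested pathway genes, the other SLC12 carriers and the regulators of WNKs and SPAK. STK39 (0.81, blue) was chosen by this difference, KLHL2 (0.60, orange) had a limma adjusted p of 0.0459, and the widest line among the pathway genes is that of SLC12A2 (-0.28 to 0.67).

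The remaining lists held no gene past the threshold of the limma fit. Their counts of genes with an unadjusted p under 0.05 stand against 6.99% of all tested genes. Of 5 other SLC12 carriers, 2 passed the low-value filter, the neuronal cotransporter SLC12A5 (KCC2) and SLC12A9, each with a log2 fold change of 0.01 whose sign turned on leaving out some single libraries, and 0 had an unadjusted p under 0.05. SLC12A1 and SLC12A3, the kidney targets of SPAK, were at most 0.00819 and 0.0150 RPKM. Of 21 other STE20 kinases, the wider family of SPAK and OSR1, 18 were tested and 1 had an unadjusted p under 0.05 (median log2 fold change 0.05). That 1 was TAOK3, at 1.80 ± 0.146 RPKM in DMSO and 2.25 ± 0.159 RPKM in GW3965 libraries (n = 5) without overlap (log2 fold change 0.31, limma adjusted p = 0.249). STRADA, a pseudokinase that activates LKB1, had the lowest value of that list (-0.15).

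Of 28 genes of other chloride and volume transport, 26 were tested, 2 had an unadjusted p under 0.05 and the median log2 fold change was 0.01. Values ran from -0.23 for LRRC8E, a subunit of the volume-regulated anion channel, to 0.50 for the sodium bicarbonate cotransporter SLC4A4 (SE 0.335). SLC4A4 followed the 3 libraries apart, with 1.92 to 2.21 RPKM in them and 0.623 to 1.75 RPKM in the other 7, and its log2 fold change ran from 0.31 (without DMSO library 3) to 0.76 (without GW3965 library 5) on leaving out 1 library. The 2 genes with an unadjusted p under 0.05, named after their values were seen, were the intracellular chloride transporters CLCN3 (log2 fold change 0.22, limma adjusted p = 0.410) and CLCN6 (0.17, limma adjusted p = 0.623), both with overlapping groups. Of 7 genes of the osmotic response, 5 were tested and 0 had an unadjusted p under 0.05. They ran from -0.13 for the taurine transporter SLC6A6 to 0.13 for NFAT5, the transcription factor of the response to hypertonicity, with a median of 0.10. The value of NFAT5 was 0.01 without DMSO library 4. Over the 5 lists together, 64 of 74 genes were tested. Of these, 42 had a positive and 22 a negative log2 fold change, while 51.1% of all tested genes had a positive one. Between groups, 4 of the 64 did not overlap, against 1.84% of all tested genes. The voom fit on recovered reads also called 1 of the 64, KLHL2.

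Across the 10 libraries, the genes whose log2 levels were most like those of STK39 were ABCG1 (Pearson r = 0.989), FASN (0.985), AREG (0.981), ME1 (0.977) and SREBF1 (0.976). All 5 were higher with GW3965, and the 10 points share the treatment and the library, so the likeness is a description. After subtraction of the group means, the 5 genes most like STK39 were RF00019, DYRK1A, KBTBD6, ZNF621 and LIMS4, and none of the first 5 was among them. Of the pathway genes, r with STK39 over the 10 libraries was 0.401 for OXSR1, 0.361 for SLC12A2, -0.0109 for WNK1 and -0.246 for SLC12A4. It was -0.434 for SLC12A7, -0.596 for WNK2 and -0.676 for WNK4. After subtraction of the group means, r ran from -0.302 (WNK2) to 0.599 (SLC12A2), with -0.243 for WNK4.

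The genes beside STK39 on chromosome 2 were set beside it as well. B3GALT1, 80.0 kb away, averaged 2.83 RPKM in DMSO and 2.78 RPKM in GW3965 libraries (log2 fold change 0.02), and CERS6, 208 kb away on the other side, averaged 4.94 and 4.70 RPKM (-0.07). The pseudogene AC067940.1 lies within the span of STK39 but shares 0 exon bases with it, and held 18 reads over the DMSO and 29 over the GW3965 libraries. The pseudogene CTAGE14P, 238 kb away, was the third neighbour tested (log2 fold change -0.17, SE 0.22). The other 5 of the 8 neighbours looked at, among them AC016723.1 at 12.9 kb, did not pass the low-value filter and were not tested.

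Start-site sequence was examined because LXRs, paired with RXR, bind a DR4 element, 2 copies of AGGTCA 4 bases apart. In the 250 bases before RefSeq start sites (GRCh38.p14), both strands were searched for these 2 copies with at most 2 mismatches. 8 of the 9 pathway genes had such a window, 11 windows in all, and WNK4 had none in the table used. 0 of the 11 held a DR4, which 2.03% of all 35116 windows held. Of the 3 LXR target genes of the label check with a window, SREBF1 and MYLIP also held 0. ABCA1 held 1, shown here in capitals to give the form of the element (minus strand relative to the gene, 2 mismatches; chr9:104928203-104928230, minus strand).

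ABCA1: aggcttTGACCGATAGTAACCTctgcgc

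A search for the GC box GGGCGG, chosen after the DR4 result was known, separated STK39 from OXSR1. The STK39 window held 3 and the OXSR1 window 0, and 42.6% of all windows held at least 1. The STK39 window was 76.4% G and C with 32 CpG, the OXSR1 window 58.4% with 17 CpG, and the median window 58.0% with 11 CpG. Both windows lie within exons of these genes in GENCODE 29, which places their starts further upstream. The stretch with the pair of STK39 GC boxes (capitals, chr2:168247726-168247753, minus strand) is shown first. It is followed by a KLHL2 window with 5 GC boxes in capitals, of which the last pair overlap (78.4% G and C, chr4:165207311-165207560, plus strand). STK39 and KLHL2 are shown as the gene chosen by its difference and the listed gene past the threshold. Another KLHL2 window (chr4:165209769-165210018, plus strand) held 0 GC boxes and was 41.6% G and C with 4 CpG.

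STK39: aggGGGCGGcggagaggggGGGCGGcgg

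KLHL2: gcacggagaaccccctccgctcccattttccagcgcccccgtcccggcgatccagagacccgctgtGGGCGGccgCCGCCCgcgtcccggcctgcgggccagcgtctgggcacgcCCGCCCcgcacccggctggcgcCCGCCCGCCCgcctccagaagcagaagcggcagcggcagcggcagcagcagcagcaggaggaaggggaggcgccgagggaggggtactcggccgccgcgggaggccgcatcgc

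A GC box also stood in the windows of WNK1 (2), WNK2 (1), WNK3 (5), SLC12A2 (3), SLC12A7 (4) and in windows of SLC12A4, none of which passed the threshold. These matches describe letters in short windows, and windows further from the start site were not searched.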

How the data were processed

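Total RNA of PC3 cells was depleted of ribosomal RNA and made into stranded libraries, although the labels give the molecule as polyA RNA. Per the submitters' processing notes, the tools were bcl2fastq 2.20.0.422, cutadapt, HISAT2 2.1.0, HTSeq 0.11.2 and DESeq2 1.22.2, with the build hg38; the gene annotation release and the strand setting of the counting are not given in the sources used here. The authors deposited RPKM values for 62656 genes in 10 libraries, with human gene identifiers. From the steps of low values, 100% of 380271 non-zero values were recovered as whole reads (tolerance 0.001).

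The 20402 genes averaging 0.5 RPKM or more over all libraries were tested on log2(RPKM + 0.1), a scale that understates changes of low genes, with limma 3.58.1 in R 4.3.3 (lmFit, eBayes with trend, two-sided, Benjamini-Hochberg over all tested genes, threshold 0.05), for 5 GW3965 against 5 DMSO libraries. The fit was tested on simulated reads drawn independently for each gene and library. These held no libraries standing apart, so that test does not cover this feature of the data. Intervals cover 95%. The members and gene lists were chosen with earlier results of these data known. Named were the 9 members, listed genes past the threshold, the highest and lowest tested gene of each list, and, after their values were seen, NEDD4L, CAB39, CLCN3 and CLCN6. Positions are from GENCODE 29 and start-site sequences from RefSeq. 21 alternatives were tried, 1 of them chosen after seeing the data. Protein sequences were not used, and 1 listed carrier is not reported here.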

Additional observations from a re-analysis of the deposited data

How the results depend on the processing

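The log2 fold change of STK39 ran from 0.76 to 0.83 over the 21 alternatives, a description since the gene was chosen by this difference, and no other pathway gene passed the threshold under any of them. Over all genes, 32 passed in the reported fit, 21 without the low-value filter, 16 with the replicate number as a block, 20 without the trend, 56 with library weights, 63 with voom on recovered reads, 18 without DMSO library 1 and GW3965 libraries 1 and 2 (an alternative chosen after seeing the data), and 17 to 38 on leaving out 1 library (17 to 21 without DMSO 3 or GW3965 2, 3, 4 or 5). Over the 5 lists of other genes, the count of 1 (KLHL2) became 0 without the filter, with the replicate block (limma adjusted p of KLHL2 0.172), without the trend, without those 3 libraries, and on leaving out any library but GW3965 1 (0 to 1). The log2 fold change of WNK1 turned positive with library weights (0.0050), without those 3 libraries (0.01) and on leaving out DMSO 4 or 5 or GW3965 1 or 2 (range -0.05 to 0.01), and on leaving out 1 library that of SLC12A5 ran from -0.03 to 0.07 and that of SLC12A9 from -0.02 to 0.05. SLC12A9 also turned to -0.0066 with quantile normalization. SLC12A2 ran from 0.10 to 0.36. The causes were not tested. With GENCODE 29 lengths, STK39 averaged 9.04 and WNK1 9.35 RPKM in DMSO libraries, and the STK39 share was 46.3% in DMSO and 59.0% in GW3965 libraries. Of the 5 genes most like STK39, 0 remained among the first 5 with deviations from group means or with Spearman's correlation. Libraries with the same replicate number correlated by -0.14 to 0.16 in their deviations from the group means, and 1 of 5 matched its own number best, so the numbers were not taken to pair the libraries. The median over all genes moved to at most 0.019. Median-of-ratios rescaling left the STK39 fit as reported (log2 fold change 0.81, SE 0.0575) and again gave 32 genes past the threshold. It hardly altered the values, so it was not a separate check. Depth limits WNK3, with 11 to 23 reads in a library.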
